A study of Homo sapiens with 60 samples.

Results

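Scutellariae Radix and Pinelliae Tuber, both given at 20 µg/mL, were compared directly in HT29 cells, an established human colorectal adenocarcinoma line. The comparison took 6 of the 60 RNA-seq libraries of the series. These were the 3 libraries of Scutellariae Radix at the low dose and the 3 of Pinelliae Tuber at the low dose, chosen by their labels and the codes of their columns. Both groups were HT29 cells, with no genetic change named in the labels, that received a 70% ethanol extract for 24 h, and their column codes belong to the same set. No vehicle library entered the comparison. The same pair of extracts was also given at 100 and 500 µg/mL (3 libraries for each extract and dose). The series further holds a vehicle group in dimethyl sulfoxide (DMSO) and other herbal extracts. Levels of vehicle, of Zingiberis Rhizoma and Zingiberis Rhizoma Recens (ethanol extracts) and of Sayeok-tang and Bojungikgi-tang (water extracts) are given below as side values. Coptidis Rhizoma and Zizyphi Fructus, with a single library at each dose, are not among these side values. The labels do not say whether replicates were separate cultures. Each p-value of the main fit therefore rests on a spread between libraries that may be technical, estimated over 54 libraries of 19 groups.

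Scutellariae Radix is the root of Baikal skullcap and is known for its flavones, among them baicalin, baicalein and wogonin. Pinelliae Tuber is the tuber of Pinellia ternata. Flavonoids are among the known ligands of the aryl hydrocarbon receptor (AhR), a transcription factor that leaves the cytoplasm when bound, pairs with ARNT and binds DNA at the core letters GCGTG. In intestinal epithelium AhR is known for inducing cytochrome P450 enzymes of the CYP1 family and its own feedback repressors. Liver X receptors (LXR) are a separate pair of receptors, activated by oxysterols, that induce the membrane pumps which export cholesterol. In bulk libraries of 1 cell line, a change in every cell and a change in the share of cells that respond cannot be told apart.

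The 6 libraries held expected counts of 18.52 to 27.4 M (M for mega) over 20850 to 22388 genes, within the range of the series (18.02 to 35.82 M). Scutellariae replicate 3 was the shallowest of the 6 and stood apart. Ribosomal protein genes took 9.39% of its counts, against 5.74% and 5.62% in Scutellariae replicates 1 and 2 and 5.67% to 6.17% in the Pinelliae libraries. For 77.1% of the 16763 genes tested its level lay outside the range of the other 5 libraries, while the share for each of those 5 was 15.9% to 28.2%. Each gene has a highest and a lowest library among the 6, so the large share of replicate 3 lowers the shares of the others. The main counts of calls and many of the values are therefore given with and without Scutellariae replicate 3. For most other genes named, the level in each library is shown. The markers of colorectal epithelium (EPCAM, KRT8, KRT18, KRT20, CDX2, VIL1 and others) were above 1 CPM (expected counts per mega-count of library size, scaled by TMM) on average in both groups, 12 of 12 markers, with summed levels of 11200 to 14900 CPM in Scutellariae and 11600 to 12200 CPM in Pinelliae. Of 5 fibroblast markers only COL1A1 was above 1 CPM in both groups, and COL1A2 and COL3A1 were at 0 in all 6 libraries. The leukocyte list (2 of 5 above 1 CPM) summed to 1860 to 2310 CPM in Scutellariae and 1940 to 2150 CPM in Pinelliae, nearly all of it LYZ, while PTPRC was at most 0.0913 CPM. The hepatocyte list (1 of 3) summed to 334 to 368 CPM and 350 to 371 CPM, all of it SERPINA1, with ALB and APOB at 0. The endothelial list (1 of 3) summed to 1.67 to 2.01 CPM and 1.9 to 1.94 CPM, and neither red cell marker was above 1 CPM.

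Few genes separated the extracts at 20 µg/mL. With all 6 libraries, 7 of 16763 genes (0.0418%) differed at an adjusted p under 0.05 (edgeR quasi-likelihood test, Benjamini-Hochberg). Of these, 6 (0.0358%) were higher in Scutellariae cells (CYP1B1, CYP1A1, ALDH1A3, ST3GAL4, PIM1 and PXDC1) and 1 (0.00597%) was lower (ABCG1). The log2 difference passed 1 in size for CYP1B1 and CYP1A1. The median standard error of a log2 fold change was 0.12, and 1821 genes (10.9%) had an unadjusted p under 0.05, or 450 (2.69%) without Scutellariae replicate 3. All 54 libraries of the fit shared the estimate of the spread. In a fit of the 6 libraries alone, edgeR called 0 genes (150 at an unadjusted p under 0.05), with the log2 fold change of CYP1B1 at 1.04 as before (adjusted p = 0.918). The same fit without Scutellariae replicate 3, chosen after seeing the data, called 10 genes, CYP1B1 among them (adjusted p = 1.1e-07). Without Scutellariae replicate 3, 9 of 16738 genes (0.0538%) were called, 8 higher (0.0478%) and 1 lower (0.00597%), and 6 of them were among the 7. Leaving out Scutellariae replicate 1 or 2 in place of replicate 3 gave 277 and 1043 calls, and leaving out any 1 Pinelliae library gave 5. Without the 3 libraries of the series that stand apart (Scutellariae low 3, Pinelliae high 2 and vehicle 1), 12 of 16696 genes (0.0719%) were called, 11 higher (0.0659%) and 1 lower (0.00599%).

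Among the 7 called genes the largest differences were in CYP1 enzymes. CYP1B1 (chromosome 2, positions 38066973 to 38109902 on the minus strand of GRCh38) encodes a cytochrome P450 that oxidises polycyclic hydrocarbons and oestrogens. CYP1B1 had 120, 106 and 86.1 CPM in the Scutellariae libraries and 48.2, 49.3 and 54.4 CPM in the Pinelliae libraries. The groups did not overlap, and replicate 3 was the lowest of the Scutellariae libraries. The log2 fold change was 1.04 ± 0.08 (SE; 95% interval 0.89 to 1.19; edgeR adjusted p = 7.2e-13), or 2.06-fold, and it was 1.16 without replicate 3.

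CYP1A1 (chromosome 15, positions 74719542 to 74725610, minus strand), the classical AhR-induced monooxygenase, was near the lower limit of detection in Pinelliae cells. It had 3.15, 1.92 and 1.59 CPM in the Scutellariae libraries (70, 49 and 28 counts), against 0.309, 0.493 and 0.292 CPM in the Pinelliae libraries (8, 11 and 8 counts). The lowest Scutellariae library was thus above the highest Pinelliae library. The log2 fold change was 2.63 ± 0.28 (95% interval 2.07 to 3.20; edgeR adjusted p = 3.2e-08), or 6.21-fold. Its interval is the widest among the 7 called genes, and its counts are the lowest.

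ALDH1A3 (chromosome 15, positions 100877714 to 100916626, plus strand) oxidises retinaldehyde to retinoic acid. It had 35, 32.6 and 29.4 CPM in the Scutellariae libraries and 19.3, 19 and 18.6 CPM in the Pinelliae libraries. The log2 fold change was 0.77 ± 0.07 (edgeR adjusted p = 5.5e-10) with replicate 3 and 0.84 without it. CYP1B1, CYP1A1 and ALDH1A3 were the 3 genes that also passed in a fit restricted to the libraries of the same code set. On the opposite strand of ALDH1A3 lies the unnamed RNA AC015712.2, and antisense genes overlap CYP1B1 and TIPARP as well. The library was directional, but no source used here gives the strand setting of the counting. How far reads of a gene and of its antisense partner were kept apart is therefore not known.

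The 9 genes looked up for promoters were the 7 called genes with TIPARP and ADGRF1. That choice follows the calls in these data and leaves out the other AhR-list members. Promoters are shown for the 3 AhR-list genes among them that matched an entry. The windows are RefSeq sequence of GRCh38.p14, 250 bases before to 50 bases after a start in RefSeq, 5′ to 3′ on the gene's strand. That start need not be the outer end of the gene positions given in this text. The windows of ALDH1A3 and TIPARP lie inside those positions, which begin at 100877714 and 156673235. Capitals mark GCGTG or its reverse complement CACGC, and the CYP1A1 window lies at chr15:74725479-74725778 (minus strand), that of ALDH1A3 at chr15:100879581-100879880 (plus strand) and the most upstream of 3 listed for TIPARP at chr3:156674340-156674639 (plus strand).
CYP1A1: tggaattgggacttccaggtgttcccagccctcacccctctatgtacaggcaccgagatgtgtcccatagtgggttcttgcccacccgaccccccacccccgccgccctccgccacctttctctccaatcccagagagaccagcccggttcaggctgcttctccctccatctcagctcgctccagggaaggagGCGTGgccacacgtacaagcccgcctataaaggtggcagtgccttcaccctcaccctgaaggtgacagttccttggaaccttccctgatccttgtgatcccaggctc
ALDH1A3: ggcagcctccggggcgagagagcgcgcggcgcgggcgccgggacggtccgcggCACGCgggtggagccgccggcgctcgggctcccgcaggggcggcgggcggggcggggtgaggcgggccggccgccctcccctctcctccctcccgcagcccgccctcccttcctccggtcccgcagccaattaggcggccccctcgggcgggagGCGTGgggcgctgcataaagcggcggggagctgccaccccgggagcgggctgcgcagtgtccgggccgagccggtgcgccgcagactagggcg
TIPARP: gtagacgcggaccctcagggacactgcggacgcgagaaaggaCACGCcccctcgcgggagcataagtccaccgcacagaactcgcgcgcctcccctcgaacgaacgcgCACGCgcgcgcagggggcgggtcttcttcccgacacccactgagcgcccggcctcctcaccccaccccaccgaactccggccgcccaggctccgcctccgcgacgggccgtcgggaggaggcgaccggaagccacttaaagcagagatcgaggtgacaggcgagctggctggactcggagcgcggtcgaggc
The CYP1A1 window held 1 match, which begins 57 bases before the RefSeq start. The ALDH1A3 window held 2 matches, 197 and 43 bases before the RefSeq start. The TIPARP window shown held 2, at 208 and 142 bases, and the further windows listed for TIPARP held 0 each. At least 1 match stood in 36.5% of all 35116 RefSeq windows of this length, and at least 2 in 12.7%. Of 9 genes looked up, 6 matched an entry, while CYP1B1, ABCG1 and PXDC1 had none. The window of ADGRF1 held 1 match, and those of PIM1 and ST3GAL4 held none of these letters. A match describes the sequence and is no measurement of binding.

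TIPARP (chromosome 3, positions 156673235 to 156706770, plus strand) encodes an ADP-ribosyltransferase that AhR induces and that restrains AhR in turn. It had 108, 106 and 70.6 CPM in the Scutellariae libraries and 71.6, 75.3 and 78.1 CPM in the Pinelliae libraries. Replicates 1 and 2 of Scutellariae were above each Pinelliae library, and replicate 3 was below each of them. With all 6 libraries TIPARP did not pass in edgeR (log2 fold change 0.34 ± 0.08, adjusted p = 0.196) but passed in DESeq2 (adjusted p = 0.0278). Without replicate 3 it did, at 0.51 ± 0.06 (95% interval 0.40 to 0.62; edgeR adjusted p = 8.2e-08).

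**Figure D1:**
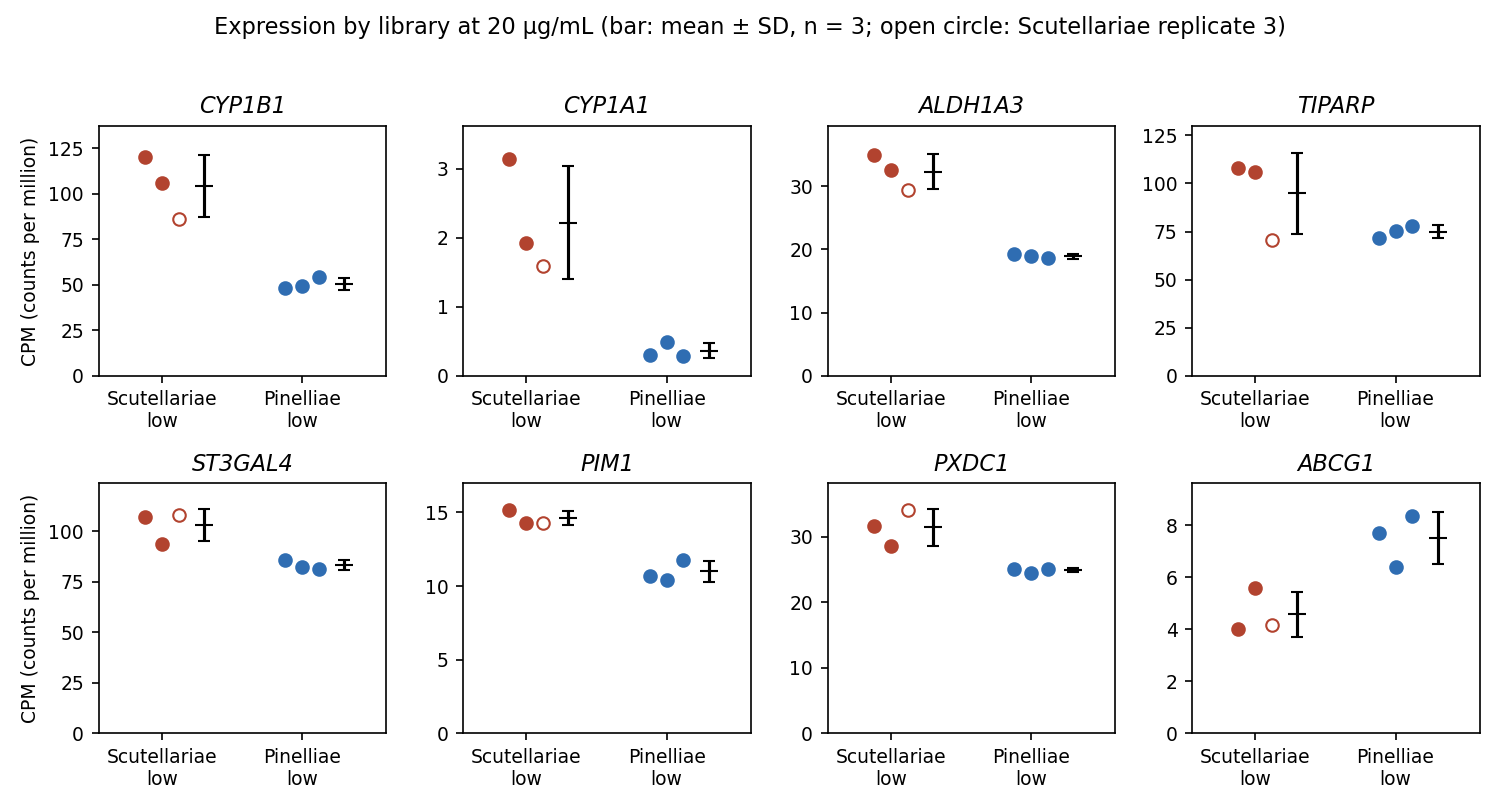
CPM of the 7 called genes and TIPARP in each library at 20 µg/mL, Scutellariae left of Pinelliae, with the mean ± SD of 3 libraries as a bar; the open circle is Scutellariae replicate 3. The groups overlap for TIPARP, where replicate 3 (70.6 CPM) lies with the Pinelliae libraries, and for none of the other 7 genes.

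The gene lists used here and below were chosen with earlier results of these data known. The share of a list that was called is therefore no test of that list. Across the AhR list, 11 of 13 genes passed the filter on low counts. Of these 11, 3 were called higher and 0 lower, where 0.0358% of all genes were called higher. Without Scutellariae replicate 3, 4 of the 11 were called, where 0.0538% of all genes were, TIPARP being the added gene. The median log2 fold change of the list was 0.18, and 0.06 without replicate 3, beside 0.00 over all genes in both cases. The rest of the list was not past the threshold. ALDH3A1, an aldehyde dehydrogenase, had 23.8, 23.2 and 29.4 CPM in Scutellariae cells and 20, 20.4 and 19.9 CPM in Pinelliae cells (log2 fold change 0.33, edgeR adjusted p = 0.449). Without replicate 3 the log2 fold change of ALDH3A1 was 0.23. NQO1, a quinone reductase, had 546, 564 and 745 CPM against 574, 527 and 537 CPM, so that replicate 3 alone was high. AHRR, the AhR repressor, had 4.09, 5.07 and 3.41 CPM in Scutellariae cells and 4.71, 3.9 and 5.43 CPM in Pinelliae cells, and its log2 fold change of -0.15 had an edgeR adjusted p of 0.627. UGT1A6, a glucuronosyltransferase, stood at 52.5, 56.5 and 53.2 CPM against 54.3, 53.9 and 50.1 CPM (log2 fold change 0.04, 95% interval -0.10 to 0.17).

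The other higher genes differed by less than 1.5-fold. ST3GAL4 (chromosome 11, plus strand), a sialyltransferase that caps galactose on cell-surface glycans, had 107, 93.8 and 108 CPM in Scutellariae cells and 85.8, 82.3 and 81.3 CPM in Pinelliae cells. Its log2 fold change was 0.31 ± 0.05 (edgeR adjusted p = 0.00102), and 0.27 without replicate 3. PIM1 (chromosome 6, plus strand), a serine/threonine kinase with growth-promoting activity, had 15.2, 14.3 and 14.3 CPM against 10.7, 10.4 and 11.8 CPM. The groups did not overlap, and the log2 fold change of PIM1 was 0.41 ± 0.08 (edgeR adjusted p = 0.007). PIM1 did not pass without Pinelliae replicate 1 (adjusted p = 0.128) or 2 (adjusted p = 0.162). PXDC1 (chromosome 6, minus strand) had 31.6, 28.5 and 34.1 CPM in Scutellariae cells and 25.1, 24.5 and 25 CPM in Pinelliae cells. Its log2 fold change of 0.33 ± 0.07 (edgeR adjusted p = 0.0345) was 0.27 without Scutellariae replicate 3 (adjusted p = 0.396). PXDC1 also did not pass without Pinelliae replicate 1, 2 or 3 (adjusted p of 0.178, 0.308 and 0.215).

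ABCG1 (chromosome 21, positions 42199689 to 42297244, plus strand) encodes an LXR-induced pump that exports cholesterol. It was the 1 gene called lower in Scutellariae cells, with 4, 5.58 and 4.15 CPM (89, 142 and 73 counts), against 7.72, 6.41 and 8.38 CPM in Pinelliae cells (200, 143 and 230 counts). The log2 fold change was -0.70 ± 0.12 (95% interval -0.95 to -0.46; edgeR adjusted p = 0.00314), and -0.64 without Scutellariae replicate 3 (adjusted p = 0.0423). Without Pinelliae replicate 3, the highest library, it was -0.62 and did not pass (adjusted p = 0.122). Of the LXR list, 8 of 10 genes passed the filter, 1 was called lower and 0 higher, where 0.00597% of all genes were called lower. The median log2 fold change of the list was -0.20 (-0.13 without replicate 3). MYLIP, whose product marks the LDL receptor for degradation, had 15.8, 16.6 and 16.8 CPM in Scutellariae cells and 18.2, 19.8 and 18.9 CPM in Pinelliae cells. These groups did not overlap, yet the log2 fold change of -0.21 did not pass (edgeR adjusted p = 0.449). ABCA1, the other main cholesterol exporter, had 5.76, 5.3 and 2.84 CPM in Scutellariae cells and 5.71, 6.77 and 7.22 CPM in Pinelliae cells, and did not pass (log2 fold change -0.48, adjusted p = 0.449). Scutellariae replicate 1 lay inside the range of Pinelliae, replicate 2 just below it and replicate 3 lowest of all. SREBF1, the LXR-induced regulator of fatty acid synthesis, had 144, 141 and 125 CPM in Scutellariae cells and 155, 153 and 161 CPM in Pinelliae cells, also with no overlap and no call (log2 fold change -0.19, adjusted p = 0.46).

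With the library that stands apart left out, 3 genes were added to the calls. Beside TIPARP these were ADGRF1, an adhesion G protein-coupled receptor, and AC015712.2, the RNA antisense to ALDH1A3. ADGRF1 had 41.6, 44.5 and 26.2 CPM in Scutellariae cells and 27.6, 30.7 and 31.4 CPM in Pinelliae cells. Replicates 1 and 2 were above each Pinelliae library and replicate 3 below each of them. Its log2 fold change was 0.53 ± 0.08 without replicate 3 (edgeR adjusted p = 2.3e-04) and 0.33 with it (adjusted p = 0.449). AC015712.2 had 15.4, 15.9 and 8.53 CPM against 11.5, 11.9 and 12.4 CPM. Its log2 fold change was 0.39 without replicate 3 (edgeR adjusted p = 0.00177) and 0.17 with it (adjusted p = 0.499).

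Because 1 gene passed on the lower side, some of the next genes by p are given as values. GABRP, a subunit of the GABA-A receptor, had 15.6, 17.4 and 15.4 CPM in Scutellariae cells and 20.8, 20.9 and 20.2 CPM in Pinelliae cells, with no overlap (log2 fold change -0.35 ± 0.08, edgeR adjusted p = 0.0836, DESeq2 adjusted p = 0.0193). NOX1, the superoxide-producing oxidase of colon epithelium, had 16.2, 18.3 and 19.1 CPM against 23.5, 20.8 and 22.1 CPM (log2 fold change -0.31, adjusted p = 0.449). PLK2, a polo-like kinase, had 134, 140 and 132 CPM against 146, 152 and 151 CPM (log2 fold change -0.14, edgeR adjusted p = 0.449, DESeq2 adjusted p = 0.0231). In all, 1136 genes (6.78%) had groups that did not overlap, and in 527 of them (3.14%) each Scutellariae library was above each Pinelliae library. The absence of overlap alone therefore sets none of these genes apart.

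The next lists had 0 genes called by edgeR, with all 6 libraries and without Scutellariae replicate 3. Since 0.0418% of all genes were called, lists of this size would rarely hold a call, and the count is given without reading from it. The shares at an unadjusted p under 0.05 are to be read against 10.9% of all genes, and 2.69% without replicate 3. The NRF2 list of antioxidant genes had 25 members tested, 5 with an unadjusted p under 0.05 and 0 without replicate 3. Its median log2 fold change was 0.11, and 0.03 without replicate 3. AKR1B10, an aldo-keto reductase, had 105, 115 and 148 CPM in Scutellariae cells and 103, 98.6 and 104 CPM in Pinelliae cells (adjusted p = 0.449). The cholesterol synthesis list had 25 members tested, 6 with an unadjusted p under 0.05 and 1 without replicate 3, and a median of 0.09 (0.03 without it). FDPS, which makes farnesyl diphosphate, had 197, 185 and 258 CPM against 188, 177 and 172 CPM. DESeq2 and limma voom also called 0 genes in both lists.

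The EGFR list of ligands and receptors had 10 members tested and 0 called by edgeR, with 2 at an unadjusted p under 0.05, 0 called by DESeq2 and 1 by limma voom with library weights. The gene called was EREG, a ligand of the EGF receptor, with 116, 115 and 103 CPM in Scutellariae cells and 89.9, 90.4 and 93.1 CPM in Pinelliae cells. The groups of EREG did not overlap, and the log2 fold change was 0.29 ± 0.11 (edgeR adjusted p = 0.449) or 0.34 in limma voom (adjusted p = 4.7e-04). EREG also passed in edgeR in the compared libraries without Scutellariae replicate 3 (adjusted p = 0.00138). AREG, a related ligand, had 44.3, 44.7 and 67.2 CPM against 42.2, 39 and 39 CPM. The BCL2 list had 12 members tested and 0 called by edgeR, with 2 at an unadjusted p under 0.05, 0 called by DESeq2 and 1 by limma voom. That gene was BMF, a pro-apoptotic BH3-only protein, with 7.56, 7.82 and 5.63 CPM against 5.29, 5.74 and 4.7 CPM (edgeR log2 fold change 0.43, adjusted p = 0.449; limma voom 0.56, adjusted p = 0.0175). BMF also passed in edgeR without the 3 libraries that stand apart (0.56, adjusted p = 0.0348). Both genes were named for these calls after their values were seen.

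Cell cycle lists also held 0 calls in edgeR. The DNA replication list (30 tested) had 3 members with an unadjusted p under 0.05 and a median log2 fold change of 0.00, and the mitosis list (26 tested) had 0 such members and a median of -0.03; DESeq2 and limma voom called 0 in either. MKI67, a marker of dividing cells, had 647, 661 and 219 CPM in Scutellariae cells and 513, 614 and 674 CPM in Pinelliae cells. Replicate 3 was the lowest of the 6 libraries, and the log2 fold change was -0.24 with it and 0.12 without it, neither past the threshold. The interferon list (24 tested) had 2 members with an unadjusted p under 0.05 and a median of 0.02, again with 0 called by edgeR, DESeq2 or limma voom. GAPDH, a glycolytic enzyme, had a log2 fold change of 0.08 (95% interval -0.11 to 0.27), and ACTB, the cytoskeletal actin, one of 0.14 (95% interval -0.10 to 0.37).

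Ribosomal protein genes and the nuclear genes of oxidative phosphorylation moved with replicate 3. All 80 ribosomal protein genes had a log2 fold change above 0, with a median of 0.30, 55 at an unadjusted p under 0.05 and 0 called by edgeR, DESeq2 or limma voom. Without replicate 3 the median was -0.05 and 0 genes had an unadjusted p under 0.05. The 28 oxidative phosphorylation genes were likewise all above 0 with a median of 0.30, and -0.04 without replicate 3. RPLP1, a protein of the ribosomal stalk, had 1110, 1000 and 2120 CPM in Scutellariae cells and 1280, 1010 and 1050 CPM in Pinelliae cells. MALAT1, a nuclear RNA, had 768, 740 and 1430 CPM against 723, 826 and 633 CPM, with a log2 fold change of 0.43, and 0.05 without replicate 3. In both genes replicate 3 was high and replicates 1 and 2 lay within or near the range of Pinelliae.

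**Figure D2:**
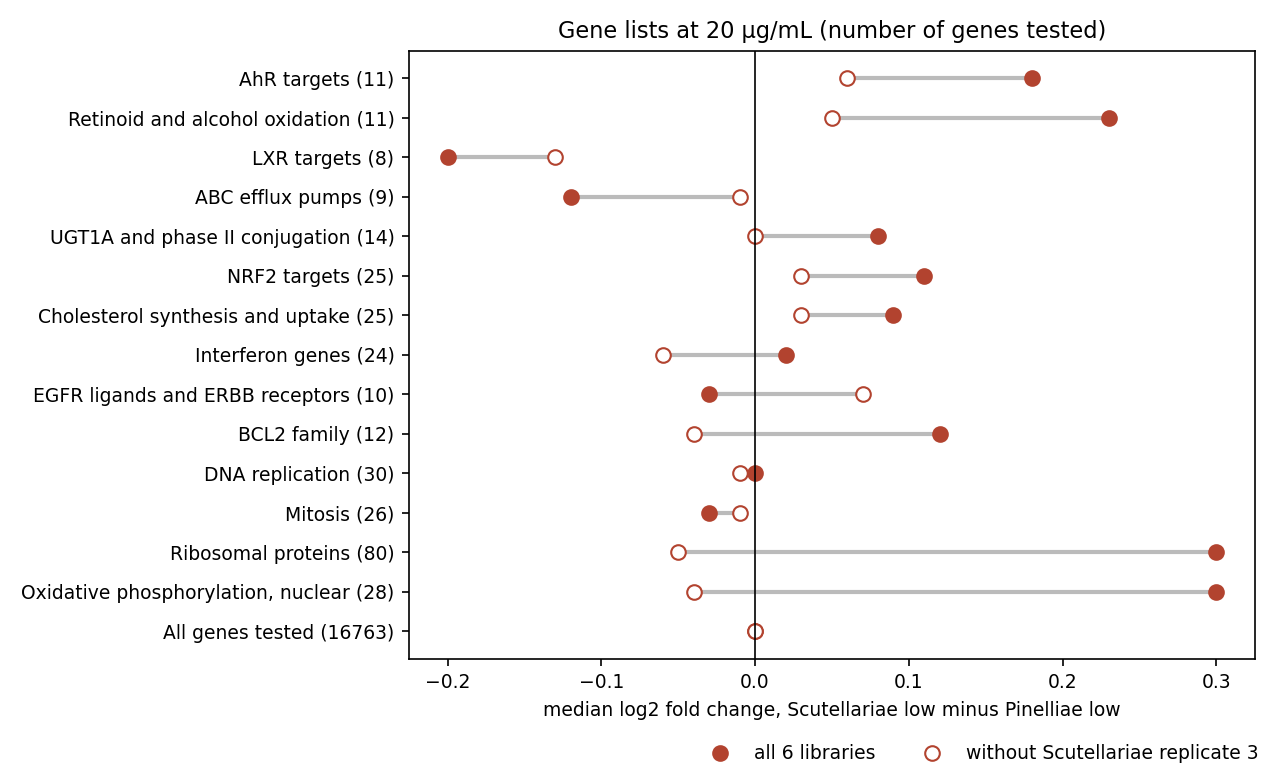
Median log2 fold change, Scutellariae minus Pinelliae at 20 µg/mL, for 14 gene lists and all genes, with all 6 libraries (filled) and without Scutellariae replicate 3 (open); the number of genes tested is in brackets. The ribosomal protein and oxidative phosphorylation lists lie at 0.30 with that library and at -0.05 and -0.04 without it, while the LXR list stays below 0 in both.

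The shift of replicate 3 followed transcript length. Among 11054 protein-coding genes with an average log2 CPM above 1, replicate 3 was higher than replicates 1 and 2 by a median log2 of 0.49 in the bin with the shortest transcripts (up to 2193 bases, 1 of 5 bins) and lower by a median of -0.49 in the bin with the longest (from 5970 bases). Replicates 1 and 2 differed from each other by a median between -0.01 and 0.00 in every bin. Pinelliae replicate 1 against Pinelliae replicates 2 and 3 ran from 0.09 to -0.09. Above an average log2 CPM of 1, replicate 3 differed more than 2-fold from replicates 1 and 2 in 152 genes upward and 497 downward, against 5 and 5 genes between replicates 1 and 2. limma voom gave the library a weight of 0.0378, and 0.598 to 1.46 to the other 5. The part of transcript length or RNA quality in single results was not tested.

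**Figure D3:**
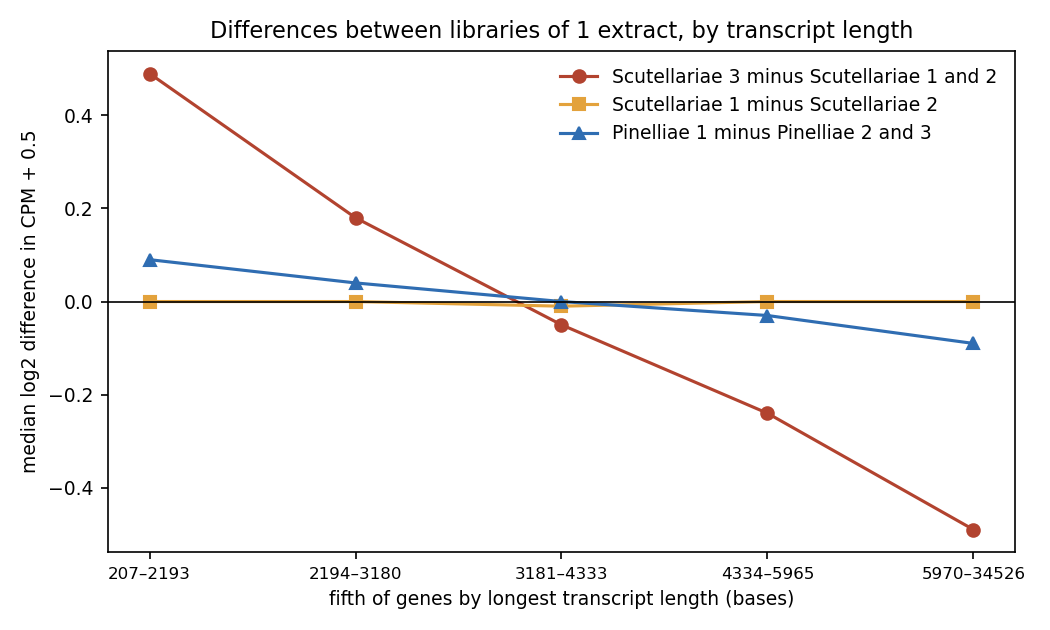
Median log2 difference between libraries of the same extract (CPM + 0.5) in 5 bins of genes by the length of the longest transcript, shortest at the left. Scutellariae replicate 3 runs from 0.49 to -0.49 against its fellow replicates, Pinelliae replicate 1 from 0.09 to -0.09, and Scutellariae replicates 1 and 2 lie at 0.

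Vehicle and the other low-dose groups belong to other code sets, so their levels stand beside the comparison without a test. The other low-dose groups shown are 2 gingers as ethanol extracts (Zingiberis Rhizoma and Zingiberis Rhizoma Recens) and 2 formulas as water extracts (Bojungikgi-tang and Sayeok-tang). CYP1B1 lay between 46.2 and 50.5 CPM in vehicle and between 49.1 and 56.3 CPM in those low-dose libraries. The Pinelliae libraries were in that range, and the Scutellariae libraries (86.1 to 120 CPM) were above it. CYP1A1 (0.168 to 0.553 CPM in those groups and vehicle) and ALDH1A3 (16.4 to 21 CPM) showed the same order. For ABCG1 it was the Pinelliae libraries (6.41 to 8.38 CPM) that lay outside, since vehicle had 4.38 to 5.47 CPM and the other low-dose groups 3.92 to 5.2 CPM. GABRP in Pinelliae (20.2 to 20.9 CPM) was also above vehicle (14.6 to 16.3 CPM) and the other low-dose groups (16.2 to 19.1 CPM), while Scutellariae (15.4 to 17.4 CPM) overlapped both. NOX1 in vehicle (17.8 to 19.2 CPM) overlapped Scutellariae (16.2 to 19.1 CPM) and lay below Pinelliae (20.8 to 23.5 CPM). PLK2 in vehicle (136 to 146 CPM) overlapped Scutellariae (132 to 140 CPM) and came near the lowest Pinelliae library (146 CPM). ST3GAL4 had 92.1 to 96.6 CPM in vehicle and 79.3 to 85.5 CPM in the other low-dose groups, so that Scutellariae (93.8 to 108 CPM) overlapped vehicle. PXDC1 in vehicle (28.2 to 30.6 CPM) also overlapped Scutellariae (28.5 to 34.1 CPM).

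More genes separated the extracts at the higher doses. At 100 µg/mL 512 of 16763 genes (3.05%) were called, 232 higher (1.38%) and 280 lower (1.67%), and at 500 µg/mL 3828 (22.8%), 1659 higher (9.90%) and 2169 lower (12.9%). Without Pinelliae replicate 2 at 500 µg/mL, a library that stands apart, the last count was 2193. All 7 genes called at 20 µg/mL were called with the same sign at 100 and at 500 µg/mL. The group levels at those doses come from other libraries than at 20 µg/mL. All of these libraries entered the same estimate of the spread, so the calls at different doses are not fully independent. The difference at 100 µg/mL minus that at 20 µg/mL, tested as an interaction, was called for 82 genes (0.489%), 48 more positive (0.286%) and 34 more negative (0.203%). CYP1B1 in Scutellariae cells averaged 104 ± 17, 499 ± 1.38 and 297 ± 6.17 CPM at 20, 100 and 500 µg/mL (SD, n = 3 each), against 50.6 ± 3.31, 56.5 ± 1.36 and 62.7 ± 7.92 CPM in Pinelliae cells. CYP1A1 averaged 2.22 ± 0.82, 184 ± 3.58 and 51.1 ± 1.3 CPM in Scutellariae cells, against 0.365 ± 0.112, 0.542 ± 0.206 and 1.08 ± 0.111 CPM in Pinelliae cells. Both genes, and ALDH1A3 (means of 32.3, 120 and 43.6 CPM against 18.9, 20.9 and 22.2 CPM), had their highest level at the middle dose of Scutellariae.

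The interaction between dose and extract was called for 6 of the 11 AhR-list genes, all of them positive, where 0.489% of all genes were called. The log2 difference was greater at 100 than at 20 µg/mL by 5.75 ± 0.49 for CYP1A1 (edgeR adjusted p = 6.1e-11), 2.10 ± 0.11 for CYP1B1 (1.3e-18), 1.74 ± 0.10 for ALDH1A3 (3.3e-17) and 1.00 ± 0.11 for TIPARP (1.2e-07). In the AhR list, 8 of 11 genes were called at 100 µg/mL, where 3.05% of all genes were, and 10 at 500 µg/mL, where 22.8% were. ABCG1 moved the other way: its Scutellariae means were 4.58, 4.58 and 3.21 CPM at the 3 doses, against 7.51, 19.2 and 15.6 CPM in Pinelliae cells, an interaction of -1.36 ± 0.17 (adjusted p = 5.6e-07). GABRP, not past the threshold at 20 µg/mL, averaged 16.1, 9.14 and 3.93 CPM in Scutellariae cells, against 20.7, 22.4 and 22.6 CPM in Pinelliae cells. PXDC1 had no detectable interaction (0.09 ± 0.09, 95% interval -0.10 to 0.29). SLC22A3, an organic cation transporter, had 10.7, 9.46 and 9.27 CPM at 20 µg/mL in Scutellariae cells against 7.64, 7.89 and 7.25 CPM (log2 fold change 0.37, adjusted p = 0.114), and a log2 difference of 1.55 at 100 µg/mL.

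**Figure D4:**
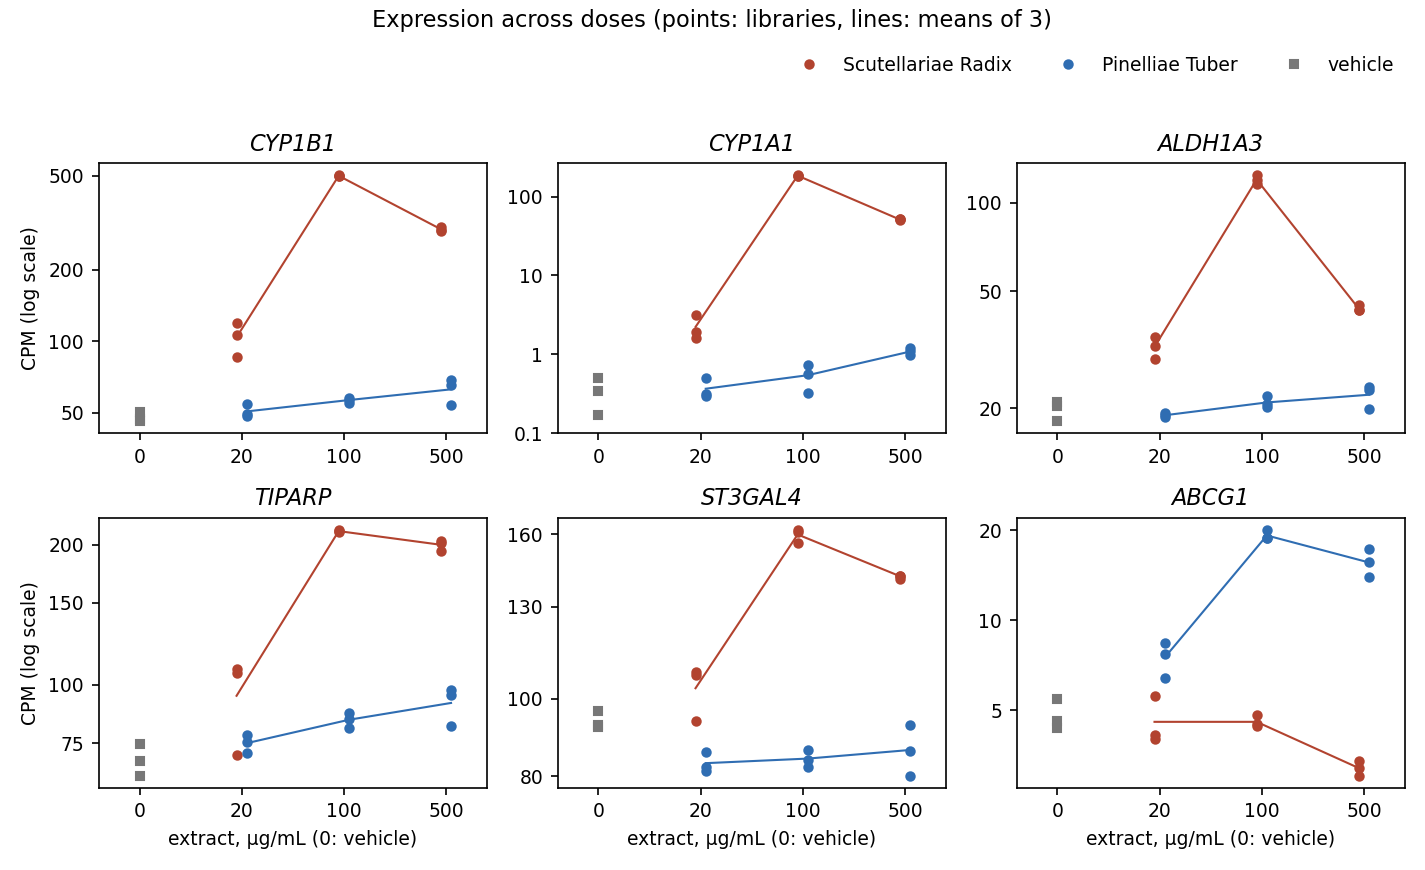
CPM (log axis) of 6 genes against dose (0 for vehicle, then 20, 100 and 500 µg/mL), Scutellariae in red, Pinelliae in blue and vehicle in grey; points are libraries and lines join means of 3. CYP1B1, CYP1A1, ALDH1A3, TIPARP and ST3GAL4 are highest at 100 µg/mL of Scutellariae, and ABCG1 is highest at 100 µg/mL of Pinelliae (19.2 CPM on average) and near 4.58 CPM in Scutellariae at the same dose.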

How the data were processed

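RNA-seq of HT29 cells was deposited by the authors as 1 table of RSEM expected counts for 60675 Ensembl genes. Sequencing used 100 bp paired reads from a directional MGIEasy library of 1 µg total RNA with a RIN above 7, per the labels' protocols. The submitters' processing notes name hg38 and, without roles, RSEM 1.3.3, STAR 2.7.3a, Trim Galore 0.6.5 and FastQC 0.11.9. Neither annotation release nor strand setting is stated in these sources. The vehicle is 0.1% DMSO in the labels but 2% in the series text. Codes in the labels tied columns to samples, and 210 other columns were not used.

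Expected counts were rounded to whole numbers (90.0% to 92.1% of values per library were already whole). Symbols come from GENCODE 29 on GRCh38 (57055 IDs matched). edgeR 4.0.16 in R 4.3.3 fitted 54 libraries of 19 groups with 2 or 3 libraries each, so that all groups shared 1 estimate of the spread, with filterByExpr, TMM scaling, estimateDisp without tagwise values, robust glmQLFit and glmQLFTest. Residual degrees of freedom were 35, the common BCV (biological coefficient of variation) was 0.0855, and calls were made at a Benjamini-Hochberg adjusted p of 0.05 over all genes. The SE is the size of the log2 fold change over the root of F. At the depth of the 6 libraries, 1 CPM is 19 to 27 counts. Alternatives were DESeq2 1.42.0, its size factors in edgeR, limma 3.58.1 voom with library weights, other filters and sets of libraries, a replicate block and each library left out. The fit was also run on simulated counts, with the same BCV for all genes and no library that stands apart. That run therefore cannot show how the fit behaves with Scutellariae replicate 3.

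Named genes are called genes with groups that do not overlap, up to 12 each way, above an average log2 CPM of 1. Where fewer than 5 passed in a direction, the 5 of smallest p were taken. Up to 3 genes of smallest p from each list described, genes called without Scutellariae replicate 3, a fixed panel and the 5 strongest interactions each way complete them. AHRR, SREBF1 and NQO1 were named as list members after their values were seen. Genes with near-identical copies (UGT1A, AKR1C, ribosomal proteins) share reads. The comparison, its members and the gene lists were chosen with earlier results of these data known. 1 named gene is not reported here.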

Additional observations from a re-analysis of the deposited data

Results flagged for a closer look

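The difference between the extracts was not the same at 100 as at 20 µg/mL for 18 named genes, by the interaction test in edgeR (Benjamini-Hochberg adjusted p under 0.05), where 82 of 16763 genes (0.489%) passed. Of the 18, 10 were named for having the smallest interaction p in either direction, so that their passing was fixed by the choice and supports nothing further. Values are the log2 difference, Scutellariae minus Pinelliae, at 100 µg/mL minus that at 20 µg/mL. Among AhR-list genes it was 5.75 for CYP1A1, 2.10 for CYP1B1, 1.74 for ALDH1A3, 1.18 for ALDH3A1, 1.00 for TIPARP and 0.63 for UGT1A6. Outside that list it was 1.17 for SLC22A3, 1.16 for ADGRF1, 0.89 for PIM1, 0.74 for AC015712.2, 0.66 for GPAT3 (an enzyme of triglyceride synthesis) and 0.62 for ST3GAL4. It was negative for ABCG1 (-1.36), CD200, an immune checkpoint ligand (-1.03), GABRP (-0.93), NOX1 (-0.77), RNF144B, a ubiquitin ligase (-0.72), and KCNE3, a potassium channel subunit (-0.51).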

How the results depend on the processing

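CYP1B1, CYP1A1 and ALDH1A3 kept their calls in 16 of 18 alternatives, ST3GAL4 in 12, ABCG1 in 11, PIM1 in 10 and PXDC1 in 6, and 0 of these 7 changed sign. Named genes with no call did: without Scutellariae replicate 3 the log2 fold change was 0.12 in place of -0.24 for MKI67, -0.08 in place of 0.34 for RPLP1, -0.01 in place of 0.14 for ACTB and -0.02 in place of 0.08 for GAPDH. Instead of 7 genes at 20 µg/mL, DESeq2 called 11 (7 shared), limma voom with library weights 16 (6 shared), no low-count filter 457 (7 shared; 360 higher, 97 lower), the compared libraries alone 0 (150 at an unadjusted p under 0.05), code set 10 alone 3, and the fit without the 3 libraries that stand apart 12. At 100 µg/mL (512 genes) these were 2354 for voom, 2257 for the compared libraries, 167 for code set 10 and 1374 without the 3 libraries. At 500 µg/mL (3828) the compared libraries gave 379 and code set 10 gave 1316. For the interaction (82) they were DESeq2 124, voom 470, no filter 214, compared libraries 21, code set 10 17 and without the 3 libraries 291. The cause was not tested.

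Leaving out 1 library gave 5 to 1043 calls at 20 µg/mL, 355 to 382 at 100, 2193 to 5267 at 500 and 60 to 137 for the interaction (137 without Scutellariae low replicate 2). Same-numbered libraries at 20 µg/mL correlated at -0.171, 0.105 and -0.129 in their deviations, and not every library correlated best with its own number (Scutellariae replicate 3 did so with Pinelliae replicate 1, at 0.249), so the numbers were not taken as pairs. With the replicate block the counts were 0 (74 at an unadjusted p under 0.05), 1965, 101 and 9 in the compared libraries and 3, 154, 1221 and 13 within code set 10. Chosen after seeing the data, fits without Scutellariae replicate 3 called 10 genes in the compared libraries and 4 with the replicate block within code set 10. Depth limits CYP1A1 most, with 8 to 11 counts per Pinelliae library.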

Other observations

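Single genes separated Scutellariae replicate 3 from its group. AL591806.3, annotated as protein-coding on chromosome 1, had 24.1, 20.3 and 0.398 CPM in Scutellariae cells and 12.7, 21.4 and 20.1 CPM in Pinelliae cells. HNRNPUL2-BSCL2, a read-through of neighbouring genes, had 62.3, 57.1 and 2.79 CPM against 29.9, 48.7 and 54.6 CPM. ZBED6, a transcription factor encoded within an intron of ZC3H11A, had 25.2, 24.9 and 1.99 CPM against 16.7, 22.5 and 23.7 CPM. AP001267.1, an antisense RNA, had 4.05, 4.32 and 38.3 CPM against 13.4, 7.93 and 5.5 CPM. These genes were named after their values were seen.

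Some genes outside the 7 passed in other fits. VIPR1, a receptor of vasoactive intestinal peptide, had 70.6, 70.5 and 52.2 CPM in Scutellariae cells and 54.4, 57.3 and 56.4 CPM in Pinelliae cells (adjusted p = 6.7e-04 in limma voom, and 6.9e-04 in edgeR without the 3 libraries that stand apart). MAOA, which oxidises serotonin, had 34.1, 34.8 and 36.6 CPM against 39.2, 41.3 and 41.8 CPM (limma voom adjusted p = 0.0338). THRIL, called by DESeq2, had 0 CPM in all 3 Scutellariae libraries and in 2 Pinelliae libraries, and 0.986 CPM in Pinelliae replicate 2, so that the call rests on 1 library.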
